A study of Saccharomyces cerevisiae with 12 samples.

Results

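Growing budding yeast (Saccharomyces cerevisiae) with a tag meant to tie Mot1 out of the nucleus received rapamycin for 60 min. The transcripts of all genes on a two-colour array were set against those of untreated cultures of the same strain. The 4 arrays described here, of 12 in the series, are those labelled Mot1-FRB without rapamycin (cultures a and b) and Mot1-FRB with rapamycin (cultures a and b). They were chosen by their labels alone, so that no measured value entered the choice. The tagged strain, YGP200, carries Mot1 fused to FRB, the domain of the Tor kinase that binds rapamycin, and its treated cultures received rapamycin at 1 µg/ml. Where the response is compared with other strains, the wild type is HHY168 with no FRB tag, and the NCB2-FRB strain, YGP201, carries the tag on NC2β. Both were also grown without and with the same rapamycin treatment, in 2 cultures per group. All cultures grew in synthetic complete medium with 2% glucose, and each group's pair came from separate colonies of 1 strain, per the labels.

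Mot1 is an ATPase that pulls the TATA-binding protein (TBP, the product of SPT15) off DNA. TBP placed at a promoter starts the assembly of the transcription machinery, so that Mot1 can lower transcription by clearing TBP from a promoter or help it by freeing TBP for use elsewhere. NC2, a pair of NC2α (BUR6) and NC2β (NCB2), also binds TBP on DNA and blocks the entry of TFIIA and TFIIB. In anchor-away strains a ribosomal protein is fused to FKBP12, and rapamycin joins it to the FRB tag, so that the tagged protein is carried out of the nucleus with new ribosomal subunits. The host strains of this method are made resistant to the growth effects of rapamycin. How much Mot1 stayed in the nucleus was not measured in these files.

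Each array compared the cRNA of 1 culture with 1 shared reference, made from untreated wild-type cells. Culture a of each group carried the dye Cy3 and culture b the dye Cy5. Levels below are the authors' log2(culture/reference), and a change is the treated mean minus the untreated mean on that log2 scale, ± SE from limma with 2 arrays per group. A gene rose or fell where its Benjamini-Hochberg adjusted p over 6388 gene probes was under 0.05, and every adjusted p here is of that kind. This SE is estimated over the 6 groups together and had a median of 0.062 for a change within a strain. The array median is set to about 0 on every array, so a change is relative to the bulk of transcripts. Whole cultures were measured, so fewer cells with a transcript and less transcript per cell cannot be told apart. The Mot1-FRB arrays had 99.0% to 99.5% of probes above the blank spots. Treated wild-type culture a stood apart with a median signal of 69.7 against 412 to 1231 on the Mot1-FRB arrays and 71.3% of probes above the blanks. The main comparisons with wild type are therefore also given without it.

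Rapamycin moved more than 1 gene in 2 in Mot1-FRB cells: 1956 genes rose (30.6%) and 1665 fell (26.1%), together 56.7% of 6388. The changes that passed were mostly modest, with a median of 0.41 for those that rose and -0.30 for those that fell. The rises reached further than the falls. At least 1.5-fold changes numbered 598 up and 176 down, at least 2-fold changes 220 up and 16 down, and 13 genes rose and 0 fell at least 4-fold. Both treated arrays lay above both untreated arrays for 2664 genes (41.7%) and below them for 2382 (37.3%), and these include all 3621 that passed the test.

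The balance of rises and falls depended on the scale. Spots for external controls gave a second reference: centring on them lowered the median of all genes by 0.17 to -0.16, and 951 genes then rose and 2532 fell. The control spots used, of 4 kinds, put the untreated Mot1-FRB arrays at -0.14 and -0.32 and the treated ones at -0.036 and -0.080. The gap between the untreated arrays is as wide as the shift itself, so 2 arrays per group do not fix its size. Ratios from the scanner intensities with median centring and no intensity-dependent curve gave 376 rises and 131 falls, and with an intensity-dependent loess curve 1403 and 977. Of 67 named genes that changed at least 2-fold, 8 moved by over 1.5 times with that loess, and these are the ribosomal protein genes described below. Of 86 counts of list members, each list counted up and down, 34 moved by over 1.5 times with the loess, 73 with median centring and 53 on the external-control scale. The share of genes that rose also varied with brightness, at 20.2% in the dimmest of 4 equal groups of probes and 31.7%, 35.9% and 34.6% in the others, and the share that fell was 17.2%, 26.9%, 28.9% and 31.2%. The authors' values have no background subtraction, which can compress the ratios of dim probes. The part of this in the shares by brightness was not tested.

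Among TBP and its direct regulators, the genes of the tagged protein and of its functional partner rose most. MOT1 (YPL082C) stood at 0.74 and 0.72 in the untreated and at 1.55 and 1.72 in the treated Mot1-FRB cultures. The groups did not overlap, and the change was 0.91 ± 0.072, a 1.87-fold rise (adjusted p = 3.86e-06). NCB2 (YDR397C), which encodes NC2β, went from 0.43 and 0.43 to 1.36 and 1.26, a change of 0.88 ± 0.050 (adjusted p = 5.61e-07). BUR6 (YER159C), for NC2α, had 0.033 and 0.10 without and 0.26 and 0.28 with rapamycin, a smaller change of 0.20 ± 0.044 (adjusted p = 0.00263) that was 0.033 (adjusted p = 0.767) when centred on external controls. SPT15 (YER148W), for TBP itself, had 0.17 and 0.035 and then 0.39 and 0.28, and its change of 0.23 ± 0.068 (adjusted p = 0.0133) was the least secure of these. Without untreated culture b it was 0.16 (adjusted p = 0.116), without treated culture a 0.17 (adjusted p = 0.0961), on the external-control scale 0.062 (adjusted p = 0.545) and with scanner ratios and loess 0.20 (adjusted p = 0.0549).

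The tagged strain already carried more MOT1 and NCB2 transcript before rapamycin. Untreated wild-type cultures had 0.0086 and -0.013 for MOT1 and -0.011 and 0.034 for NCB2, and untreated Mot1-FRB exceeded them by 0.73 ± 0.072 (adjusted p = 0.000465) and 0.42 ± 0.050 (adjusted p = 0.00175). With rapamycin the wild type was at 0.0042 and 0.15 for MOT1 and 0.0024 and -0.010 for NCB2. MOT1 also rose where it carries no tag, from 0.20 and 0.12 to 1.20 and 1.06 in NCB2-FRB cells. These are transcript levels and do not show what happened to either protein. The list of 10 genes around TBP had 4 that rose and 1 that fell, with a median of 0.076. The one that fell was TOA1, for the large subunit of TFIIA, which helps TBP hold DNA (-0.32 ± 0.044, adjusted p = 0.00015). TAF1, SPT3 and SPT8, which touch TBP from TFIID and SAGA, had 0.055, 0.097 and 0.025 and did not pass.

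**Figure D1:**
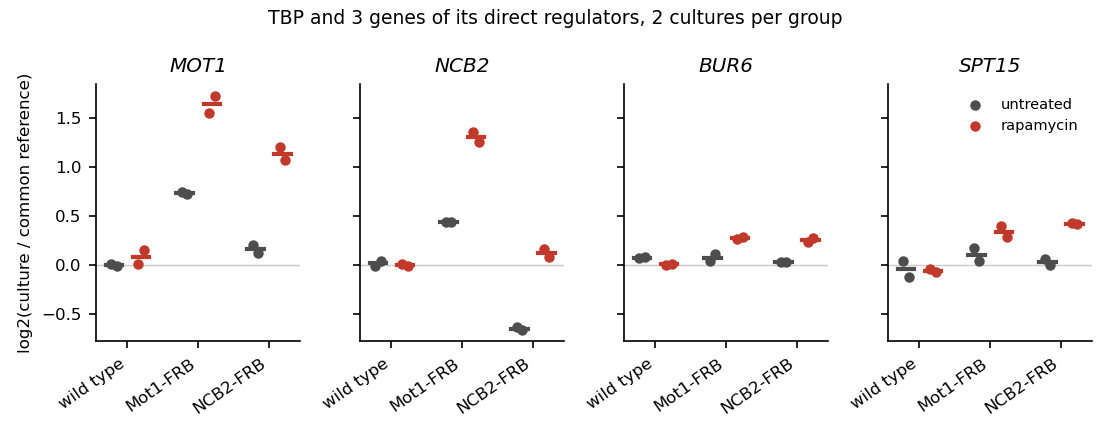
Levels of 4 transcripts on all 12 arrays, as log2 of the culture over the common reference, by strain and treatment; each point is 1 culture and each short line the mean of 2. In Mot1-FRB cells MOT1 went from 0.74 and 0.72 to 1.55 and 1.72 and NCB2 from 0.43 and 0.43 to 1.36 and 1.26, while the wild-type points stayed near 0.

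Stress genes were prominent among the largest rises. HSP12, for a small protein that steadies membranes under stress, stood at 0.087 and 0.17 in the untreated and 2.22 and 2.95 in the treated cultures, a 5.48-fold rise (2.45 ± 0.28, adjusted p = 3.84e-05). HSP26, a small heat shock chaperone, was already at 1.59 and 2.01 without rapamycin and reached 3.89 and 4.54 with it (2.41 ± 0.25). Its untreated level exceeded that of untreated wild type by 1.78 ± 0.25 (adjusted p = 0.00437). The second small chaperone, HSP42, rose from -0.16 and -0.089 to 1.69 and 2.06, and the inducible Hsp70 gene SSA4 from 0.20 and 0.32 to 2.17 and 2.80. SSE2, for an exchange factor of Hsp70, rose by 2.17 ± 0.15. DDR2, a general stress gene, rose by 2.01 ± 0.14. No treated value of these genes reached down to an untreated one.

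Metabolic genes made up much of the rest of the 15 largest rises. GAD1, for glutamate decarboxylase, rose 5.15-fold from 0.18 and 0.33 to 2.42 and 2.81. INO1, for the enzyme that makes inositol phosphate, rose 4.71-fold from 0.32 and 0.52 to 2.43 and 2.88. MTD1, a folate enzyme of one-carbon metabolism, had the smallest SE of the 15, with 0.29 and 0.18 without and 2.25 and 2.16 with rapamycin (1.97 ± 0.054, adjusted p = 1.46e-08). CAR2, the arginine-breakdown gene for ornithine transaminase, rose by 2.07 ± 0.076, and BDH2, a dehydrogenase gene related to the butanediol dehydrogenase BDH1, by 2.24 ± 0.17. The reticulon gene RTN2 rose by 2.07 ± 0.19 and WSC4, a member of the WSC family of cell surface sensors, by 2.21 ± 0.093, the latter from an untreated level 1.09 ± 0.093 above wild type (adjusted p = 0.000222). RTC3 (2.44 ± 0.21) and MSC1 (2.43 ± 0.16) followed HSP12 in size.

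The largest falls were smaller than the largest rises, and many were of ribosomal protein genes. MF(ALPHA)2, one of the genes for the α-factor pheromone, fell from 0.41 and 0.60 to -0.88 and -0.88 (-1.39 ± 0.17, adjusted p = 6.51e-05). SES1, the seryl-tRNA synthetase gene, fell from -0.016 and -0.17 to -1.26 and -1.39 (-1.23 ± 0.10). UTP14, for a part of the small subunit processome, had 0.12 and 0.12 without and -0.93 and -1.03 with rapamycin (-1.10 ± 0.058, adjusted p = 3.95e-07). Of these 15 genes 8 encode ribosomal proteins: RPS1B (-1.20), RPS17A (-1.15), RPS21B (-1.12), RPS3 (-1.09), RPL26A (-1.09), RPS24A (-1.06), RPL21B (-1.03) and RPS19B (-1.003). These values depended on the source of the ratios. With scanner ratios and loess they ranged from -0.52 (RPS24A) to -0.15 (RPS19B), and RPS17A (-0.28, adjusted p = 0.209), RPS21B (-0.17, adjusted p = 0.166) and RPS19B (adjusted p = 0.159) no longer passed. With median centring none of the 8 passed, with values from -0.49 (RPS24A) to -0.13 (RPS19B). The others were SWM1, for a subunit of the anaphase-promoting complex (-1.09 ± 0.061), SAM4, for a homocysteine methyltransferase (-1.06 ± 0.10), YMR321C (-1.08 ± 0.062) and ZPS1. ZPS1, a zinc-regulated gene for a cell surface protein, was the least even of them, with 0.52 and 0.65 and then -0.94 and -0.23 (-1.17 ± 0.27, adjusted p = 0.00385), and it also had -0.51 in wild type.

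**Figure D2:**
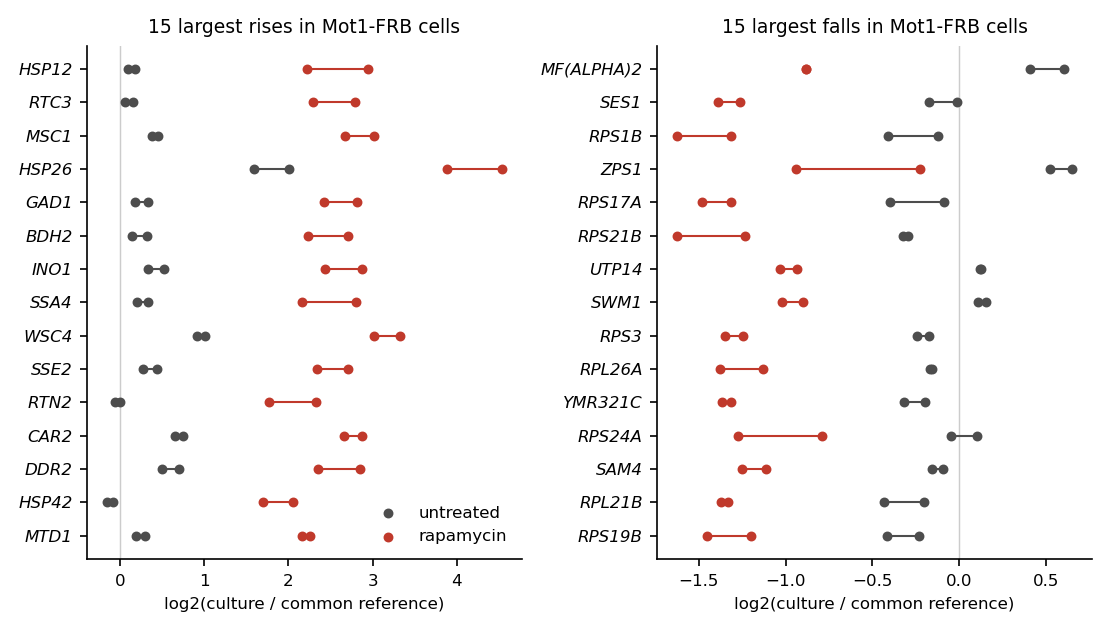
Levels on the 4 Mot1-FRB arrays of the 15 genes with the largest rises (left) and the 15 with the largest falls (right), as log2 of the culture over the common reference; each point is 1 culture, and a line joins the 2 cultures of a group. Genes were chosen only where treated and untreated points do not overlap, and HSP26 and WSC4 start above 0 before rapamycin.

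Most measured genes of the stress and storage lists rose. All gene lists here are described by their counts and medians, beside 30.6% risen, 26.1% fallen and a median of 0.012 over all genes. Their counts on the external-control scale stand beside 951 risen and 2532 fallen of all 6388 genes on that scale. Counts with median centring stand beside 376 risen and 131 fallen. The lists were put together with earlier results of these data known. Of 14 measured small heat shock and membrane stress genes, 11 rose and 0 fell (median 1.23), or 7 and 0 with median centring. Besides those above they include DDR48 (1.74) and HSP31 (1.49), whereas SSA3 (0.033), a second inducible Hsp70 gene, did not pass. Trehalose and glycogen are the storage carbohydrates that yeast builds up under stress, and 18 of their 20 genes rose and 1 fell (median 0.84). TSL1, for a subunit of the trehalose synthase complex, went from 0.0050 and -0.079 to 1.37 and 1.69 (1.56 ± 0.14), PGM2, the main phosphoglucomutase gene, from -0.013 and 0.12 to 1.33 and 1.75, and NTH1, which breaks trehalose down, from 0.021 and 0.23 to 1.40 and 1.61. The list holds genes for making and for breaking down trehalose. With median centring 6 of its genes rose and 0 fell (median 0.92), and PGM2 did not pass (1.59, adjusted p = 0.0522).

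Defence against peroxide and superoxide showed the same direction, with 21 of 30 genes risen and 1 fallen (median 0.67). With median centring 11 rose and 0 fell (median 0.78). SRX1, the sulfiredoxin gene, rose 3.3-fold (1.72 ± 0.11), SOD2, the mitochondrial superoxide dismutase gene, 3.17-fold (1.67 ± 0.096), and CTT1, the cytosolic catalase gene, from -0.12 and -0.15 to 1.19 and 1.61 (1.54 ± 0.22). MSN4, for a stress transcription factor acting on many of these genes, rose by 0.80 ± 0.092, while its paralog MSN2 had -0.034 and did not pass.

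Chaperones and protein turnover divided by gene. Of 32 genes in the cytosolic chaperone and chaperonin list, which also holds the mitochondrial HSP78, 17 rose and 7 fell (median 0.20). On the external-control scale 9 rose and 10 fell. HSP104, the disaggregase gene, rose from -0.55 and -0.50 to 1.13 and 1.49 (1.83 ± 0.14), SIS1, an essential Hsp40 gene, from -0.44 and -0.47 to 0.54 and 0.70, and HSP78, the mitochondrial disaggregase gene, by 1.18 ± 0.16. Vacuolar proteases and hydrolases had 13 of 17 genes risen and 0 fallen (median 0.44). Proteinase B (PRB1, 1.35 ± 0.073) and its inhibitor PBI2 (1.43 ± 0.11) both rose, as did the aminopeptidase gene APE1 (1.13 ± 0.13).

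Of 26 autophagy genes 11 rose and 3 fell, including the core genes ATG8 (0.71 ± 0.074) and ATG3 (0.70 ± 0.084), and on the external-control scale 4 rose and 5 fell. Proteasome genes had 6 risen and 6 fallen of 33, and on the external-control scale 2 rose and 16 fell. On that scale 951 rose and 2532 fell of all 6388 genes. The proteasome subunit gene RPN1 rose (0.48 ± 0.076; 0.33 with scanner ratios and loess, adjusted p = 0.0632), as did RPN4, for the transcription factor of proteasome genes (0.47 ± 0.072), whereas the ubiquitin receptor gene RPN10 fell (-0.52 ± 0.053). Without untreated culture a, treated culture a or treated culture b, 3 proteasome genes fell. Ubiquitin pathway genes had 7 risen and 6 fallen of 23 (30.4% and 26.1%), near the 30.6% and 26.1% of all genes. The largest changes were those of UBC8 (0.88 ± 0.066) and UBC5 (0.66 ± 0.077), both for conjugating enzymes.

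**Figure D3:**
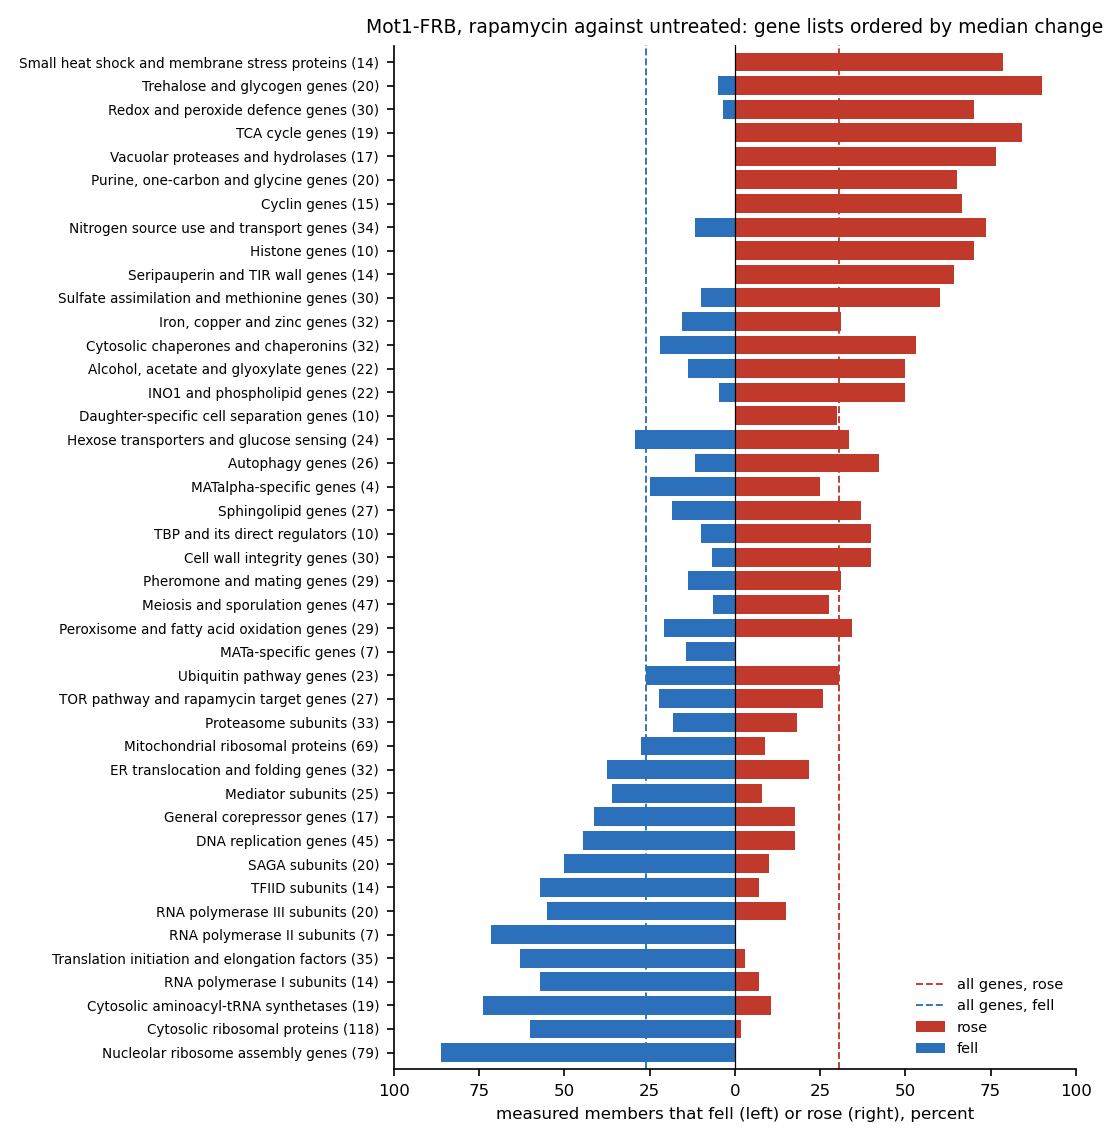
Percent of measured members of 43 gene lists that rose (right) or fell (left) with rapamycin in Mot1-FRB cells, with the number measured in brackets and lists ordered by median change; dashed lines mark 30.6% risen and 26.1% fallen over all genes. Stress, storage, TCA and vacuolar genes lie at the top and ribosome, tRNA synthetase and polymerase genes at the bottom.

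Central and nitrogen metabolism rose in many steps. Of 19 TCA cycle genes 16 rose and 0 fell (median 0.49). IDH1, for the NAD-dependent isocitrate dehydrogenase, rose by 1.23 ± 0.091, SDH2, for a succinate dehydrogenase subunit, rose by 0.90 ± 0.054, and PYC1, for a pyruvate carboxylase that feeds the cycle, by 0.89 ± 0.069. PYC1 also had 0.43 in wild type, and its excess over wild type was 0.46 ± 0.098 (adjusted p = 0.00408). Nitrogen source genes had 25 of 34 risen and 4 fallen (median 0.40; 15 and 7 on the external-control scale).

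Arginase (CAR1) rose from 0.63 and 0.61 to 1.89 and 1.92 and the GABA transaminase gene UGA1 from 0.46 and 0.37 to 1.85 and 2.00. The permease genes AGP1 (1.07), DAL5 (1.00) and GAP1 (0.90) also rose. URE2, for the protein that holds the activator Gln3 in the cytoplasm, fell by 0.48, and GLN3 fell by 0.32. ASP1, the cytosolic asparaginase gene, fell by 0.89. CAR1 and CAR2 were higher in untreated Mot1-FRB than in untreated wild type, by 0.72 ± 0.059 (adjusted p = 0.000186) and 0.81 ± 0.076 (adjusted p = 0.000367).

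One-carbon, sulfur and lipid genes included some of the clearest single responses. Of 20 purine, one-carbon and glycine genes 13 rose and 0 fell (median 0.44). Genes of the glycine cleavage system, GCV1 (0.83 and 0.73 to 2.30 and 2.54) and GCV2 (0.49 and 0.38 to 1.53 and 1.35), rose together with the purine synthesis gene ADE17 (1.45 ± 0.090). Sulfate assimilation and methionine genes had 18 of 30 risen and 3 fallen (median 0.26; 11 and 8 on the external-control scale), and 5 fell without treated wild-type culture a or b, which enter only through the pooled spread. The first steps of sulfate use led them: MET3, for ATP sulfurylase, went from 0.46 and 0.60 to 2.18 and 2.48 (1.80 ± 0.090), and MET14, for the kinase that follows it, from 0.67 and 0.73 to 1.96 and 2.04 (1.30 ± 0.071).

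Phospholipid genes had 11 risen and 1 fallen of 22 (median 0.16; 6 and 3 on the external-control scale). After INO1 came PSD1, for phosphatidylserine decarboxylase (1.07 ± 0.075), OPI3, for a methyltransferase of phosphatidylcholine synthesis (0.68 ± 0.13), and ITR1, the inositol transporter gene (0.59 ± 0.093). In the sphingolipid list 10 of 27 rose and 5 fell. YPC1, a ceramidase gene, rose from 0.33 and 0.18 to 1.61 and 1.64, and ORM2, for a regulator that restrains sphingolipid synthesis, from 0.35 and 0.18 to 1.25 and 1.35. Without untreated culture b, 3 sphingolipid genes fell.

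Carbon source genes were mixed. Alcohol, acetate and glyoxylate genes had 11 of 22 risen and 3 fallen, led by the aldehyde dehydrogenase genes ALD3 (1.76 ± 0.23), ALD4 (1.25 ± 0.13) and ALD2 (1.14 ± 0.083), the first and last being near-identical copies that can share hybridised cRNA. Hexose transporter and glucose sensing genes had 8 of 24 risen and 7 fallen, a split close to that of all genes. Within that list the glucose-phosphorylating enzymes HXK1 (1.54 ± 0.23) and GLK1 (1.40 ± 0.18) rose and HXT1, the low-affinity glucose transporter gene, fell from 0.32 and 0.14 to -0.28 and -0.41 (-0.58 ± 0.074). With median centring HXK1 (1.48, adjusted p = 0.0665), GLK1 (1.35, 0.0629) and HXT1 (-0.24, 0.752) did not pass. Of 29 peroxisome and fatty acid oxidation genes 10 rose and 6 fell (2 fell without either untreated culture b or treated culture a), with PEX19 (0.96 ± 0.049) and PEX11 (0.82 ± 0.068), for biogenesis and division of the peroxisome, the largest.

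Iron, copper and zinc genes had 5 of 32 fallen and 10 risen (31.25%, near the 30.6% of all genes). That count was 6 without untreated culture a, 5 without untreated culture b and 3 without treated culture b. TIS11, for an mRNA-binding protein of low iron, had an uneven treated pair, 0.77 and 1.64 against 0.49 and 0.36 untreated, and its change of 0.78 ± 0.29 (adjusted p = 0.0402) was 0.35 (adjusted p = 0.333) without treated culture b. Its call ended in 9 of the 12 runs that left out 1 array, the others being each wild-type array, untreated Mot1-FRB culture a or b and untreated NCB2-FRB culture a or b (adjusted p from 0.0541 to 0.145), and with scanner ratios and loess (adjusted p = 0.0892).

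Genes for making ribosomes fell in most of their measured members. Of 79 nucleolar ribosome assembly genes 0 rose and 68 fell (median -0.38), and in 45 the change was lower than in wild type by the test of the difference (39 without the dim array). With median centring 13 of these genes fell. NOC4, for a factor of small subunit assembly, went from 0.077 and 0.011 to -0.78 and -0.80 (-0.83 ± 0.051), NOP56, for a core protein of box C/D particles, from -0.087 and -0.15 to -0.91 and -1.05 (-0.86 ± 0.072), and ARX1, for an export factor of the large subunit, from 0.19 and 0.22 to -0.66 and -0.76 (-0.92 ± 0.076). ARX1 also had -0.29 in wild type, and its fall exceeded that by -0.63 ± 0.11 (adjusted p = 0.00125). Of 118 measured cytosolic ribosomal protein genes 71 fell and 2 rose (median -0.38), with 91 fallen on the external-control scale, 57 with scanner ratios and loess and 1 with median centring. The range was wide, from -1.20 for RPS1B to 0.45 for RPS10A, but with the scanner loess these were -0.32 and -0.14. In the authors' values the count that rose was 0 without either untreated culture a or treated culture b, 1 without untreated culture b and 4 without treated culture a.

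Many yeast ribosomal proteins are encoded by a pair of nearly identical genes, and in the authors' values the copies did not change equally. Over 45 measured pairs both copies fell in 17, 1 copy fell in 22 and neither in 6, and the median difference between the copies was 0.28. Under the scanner loess both fell in 14, 1 in 19 and neither in 12, with a median difference of 0.15, and with median centring neither fell in all 45. Both copies fell in 10 pairs without treated culture a. RPS10 differed most: the A copy had 0.45 and rose, and the B copy had -0.63 and fell. The RPS10 copies had -0.14 and -0.28 with the scanner loess and neither passed (adjusted p = 0.342 and 0.116). In RPS26 the A copy had 0.12 and the B copy -0.73, in RPS29 -0.0019 and -0.85, in RPS4 -0.995 and -0.17, and in RPL12 -0.88 and -0.10. The gaps of these 4 were 0.22, 0.10, 0.35 and 0.13 with the scanner loess. Copies with the same direction and size also occurred, such as RPL40 (-0.57 and -0.52), RPL8 (-0.43 and -0.49) and RPL13 (-0.71 and -0.80). Near-identical copies can share hybridised cRNA, which would make their values more alike, and the part of this in the paired values was not tested.

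**Figure D4:**
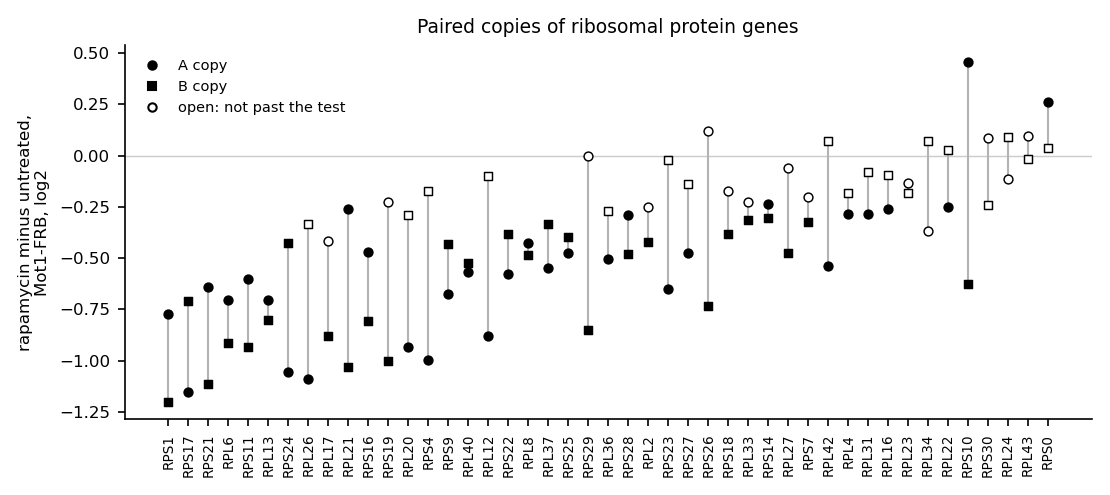
Change with rapamycin in Mot1-FRB cells, in log2, of both copies of 45 ribosomal proteins (circles A, squares B), joined by a line and ordered by the mean of the pair; filled symbols passed the test. Both copies fell in 17 pairs and 1 copy in 22, and the widest gap is that of RPS10, from 0.45 to -0.63, which was 0.14 with scanner ratios and loess.

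The rest of the translation and polymerase machinery also fell in most members that passed. Of 35 translation factor genes 22 fell and 1 rose (median -0.26), including TIF34 (-0.68 ± 0.12) and RPG1 (-0.61 ± 0.060), for eIF3 subunits, TIF11, for eIF1A (-0.66 ± 0.082), and EFB1, for the exchange factor of eEF1A (-0.62 ± 0.097). Under the scanner loess EFB1 was -0.047 (adjusted p = 0.64) and TIF34 -0.57 (adjusted p = 0.082), neither past the test, and 13 of the list fell (2 with median centring). The one that rose was HYP2, for eIF5A (0.31). Of 19 cytosolic aminoacyl-tRNA synthetase genes 14 fell and 2 rose (median -0.29). After SES1 came VAS1 (-0.70 ± 0.058), TYS1 (-0.62 ± 0.055) and MES1 (-0.44 ± 0.052), for valine, tyrosine and methionine. Mitochondrial ribosomal proteins, made from a separate set of genes, had 19 of 69 fallen and 6 risen (median -0.050), near the 26.1% of all genes for falls. Without untreated culture b 10 fell, without untreated culture a 2 rose and without treated culture b 3 rose, and on the external-control scale 33 fell and 2 rose.

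RNA polymerase I, which makes the large rRNA, had 8 of 14 genes fallen and 1 risen (median -0.28). With scanner ratios and loess 7 fell, and with median centring 1. RPA12 went from 0.12 and 0.28 to -0.43 and -0.50 (-0.66 ± 0.070), and RPA14 fell by 0.66 with an SE of 0.090. In RNA polymerase III, which makes tRNA and 5S rRNA, 11 of 20 genes fell and 3 rose, RPC31 (-0.66 ± 0.059) and RPO31 (-0.53 ± 0.058) among the falls. Falls in that list numbered 8 with scanner ratios and loess and 3 with median centring. The largest rise in that list was MAF1, for the protein that represses this polymerase, from 0.23 and 0.23 to 0.88 and 0.98 (0.70 ± 0.057, adjusted p = 4.6e-06), and TFC7, for a subunit of its assembly factor TFIIIC, rose by 0.52 ± 0.058.

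Genes of the RNA polymerase II machinery, on which Mot1 acts through TBP, also fell in more members than rose in the authors' values. With scanner ratios and loess 3 polymerase II subunit genes, 5 TFIID genes and 5 Mediator genes fell. With median centring these counts were 1, 0 and 1. Of 7 measured polymerase II subunit genes 5 fell and 0 rose (median -0.24). RPB11 had -0.016 and -0.16 without and -0.79 and -0.86 with rapamycin (-0.74 ± 0.078), RPB4 fell by 0.55 and RPB9 by 0.50 (RPB4 -0.44 with scanner ratios and loess, adjusted p = 0.204), while the 2 largest subunit genes, RPO21 (-0.076) and RPB2 (-0.088), did not pass. Of 14 TFIID genes 8 fell and 1 rose (median -0.17), and 5 fell without either untreated culture a or treated culture b. TAF6 (-0.43 ± 0.065) and TAF14 (-0.39 ± 0.048) fell most, and TAF10 rose (0.27 ± 0.052), which was 0.10 with scanner ratios and loess (adjusted p = 0.542) and on the external-control scale (adjusted p = 0.343).

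SAGA, the coactivator that delivers TBP to many stress genes, had 10 of 20 genes fallen and 2 risen (median -0.13). The acetyltransferase gene GCN5 fell by 0.36, HFI1, for a core subunit, from 0.015 and -0.035 to -0.35 and -0.60 (-0.47 ± 0.088), and SGF29 by 0.37. SGF11, of the deubiquitinase module, rose from 0.22 and 0.24 to 0.88 and 0.82 (0.62 ± 0.048), and TAF10 is counted in both TFIID and SAGA. SPT3 and SPT8, of the TBP-binding part, did not pass as given above. Of 25 Mediator genes 9 fell and 2 rose (median -0.086), and 14 fell and 0 rose on the external-control scale. SRB2 (-0.43 ± 0.045), MED7 (-0.42 ± 0.052) and SRB7 (-0.40 ± 0.047) fell.

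MED6, a head subunit of Mediator, was unusual before rapamycin, at 1.20 and 1.45 in untreated Mot1-FRB against 0.066 and 0.11 in untreated wild type (1.24 ± 0.079, adjusted p = 5.73e-05). Rapamycin took it to 1.64 and 1.74, a further 0.36 ± 0.079, which was 0.24 (adjusted p = 0.0264) without untreated culture a. The call ended on the external-control scale (0.19, adjusted p = 0.168) and with median centring (0.29, adjusted p = 0.24). Of 17 general corepressor genes 7 fell and 3 rose (median -0.10), with the Ccr4-Not scaffold gene CDC39 (-0.47 ± 0.067) and the histone deacetylase gene RPD3 (-0.29 ± 0.051) falling and HDA2, of another deacetylase, rising from 0.0075 and 0.010 to 0.74 and 0.73 (0.72 ± 0.047). CDC39 was -0.087 with scanner ratios and loess (adjusted p = 0.25). The corepressor count that fell was 3 without untreated culture b and 4 without treated culture a or b, and the count that rose was 1 without any one of the 4 Mot1-FRB arrays.

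Histone and cyclin genes rose in most of their measured members in the authors' values. Of 10 histone genes 7 rose and 0 fell (median 0.37; 4 rose and 1 fell on the external-control scale). HHF1, for histone H4, went from 0.26 and 0.28 to 0.84 and 0.78 (0.54 ± 0.050), and HHT2, for histone H3, from 0.35 and 0.16 to 0.71 and 0.66 (0.43 ± 0.099; 0.35 with scanner ratios and loess, adjusted p = 0.129). HHF2, the other H4 gene, whose near-identical sequence can share hybridised cRNA, had 0.54 with uneven treated cultures, 0.27 and 0.97, and without treated culture b its change was 0.19 (adjusted p = 0.191). The HHF2 call also ended without untreated culture a (adjusted p = 0.0786) or b (0.0901), on the 4 Mot1-FRB arrays alone (0.0731) and on the external-control scale (0.0637). Of 15 cyclin genes 10 rose and 0 fell (median 0.42). The Pho85 cyclins PCL1 (0.80 ± 0.098), PCL7 (0.76 ± 0.059) and PCL5 (0.64 ± 0.097) and the G1 cyclins CLN1 (0.55 ± 0.057) and CLN2 (0.43) were among them, while the mitotic cyclins CLB2 (-0.064) and CLB3 (-0.14) did not pass. With median centring HHF1 (adjusted p = 0.504), HHT2 (0.245) and HHF2 (0.451) did not pass. Nor did PCL1 (0.146), PCL5 (0.199) and CLN1 (0.123), while PCL7 kept its call.

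DNA replication genes moved mostly the other way, with 20 of 45 fallen and 8 risen (median -0.10). PSF2, for a subunit of the GINS complex, went from -0.013 and -0.068 to -0.61 and -0.70 (-0.61 ± 0.056). The members that rose include 3 genes of ribonucleotide reductase, which makes deoxyribonucleotides: RNR2 from 0.42 and 0.34 to 1.46 and 1.62 (1.16 ± 0.082), RNR4 by 0.86 ± 0.064 and RNR1 by 0.52 ± 0.072. Each of the 3 was also higher in untreated Mot1-FRB than in untreated wild type, by 0.36 ± 0.082, 0.36 ± 0.064 and 0.37 ± 0.072 (adjusted p = 0.0377, 0.0127 and 0.0186). Daughter-specific cell separation genes had 3 of 10 risen and 0 fallen, DSE1 (0.42 ± 0.058) the largest, and 0 rose with scanner ratios and loess (DSE1 0.30, adjusted p = 0.11). AMN1 (0.26, adjusted p = 0.056) and DSE4 (0.17, adjusted p = 0.0556) did not pass without treated culture a.

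Cell wall and secretory genes gave a few large changes in lists that were otherwise mixed. The cell wall integrity list had 12 of 30 genes risen and 2 fallen (median 0.071; 7 and 8 on the external-control scale). GSC2, for the stress-induced glucan synthase, went from 0.74 and 0.91 to 2.00 and 2.36 (1.36 ± 0.15) and was already 0.86 ± 0.15 above wild type without rapamycin (adjusted p = 0.0117). The wall protein gene PST1 (1.33 ± 0.079) and SLT2, the MAP kinase of the wall pathway (1.09 ± 0.072), also rose. The seripauperin and TIR wall list had 9 of 14 genes risen and 0 fallen (median 0.33; 2 and 0 on the external-control scale), with TIR3 going from 0.22 and 0.23 to 1.61 and 1.47 (1.32 ± 0.053). The seripauperin genes are near-identical and can share hybridised cRNA.

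In the ER translocation and folding list 12 of 32 fell and 7 rose. The translocon genes SSS1 (-0.77 ± 0.042) and SSH1 (-0.69 ± 0.061) fell, and the folding genes PDI1, for protein disulfide isomerase (0.80 ± 0.084), and SIL1, for an exchange factor of the ER Hsp70 (0.85 ± 0.061), rose. The TOR pathway list, which holds genes for the natural targets of rapamycin, had 7 of 27 risen and 6 fallen. These shares, 25.9% and 22.2%, lie near the 30.6% and 26.1% of all genes. TOR1 (-0.019) and TOR2 (0.046) did not pass, and besides MSN4 the largest rises were TIP41, for a partner of TOR phosphatases (0.54 ± 0.061), and RIM15, for a kinase of entry into quiescence (0.53 ± 0.081).

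Mating and meiosis genes responded in parts only. Of 29 pheromone and mating genes 9 rose (31.0%), near the 30.6% of all genes, and 4 fell (13.8%, against 26.1%). Those that rose include AGA1, for the agglutinin anchor (0.65 ± 0.062), the MAP kinase gene FUS3 (0.58 ± 0.075) and FAR1, for the arrest protein (0.40 ± 0.065). On the external-control scale 2 rose and 8 fell, and 2 fell without untreated culture a, untreated culture b or treated culture b. FAR1 was 0.23 on that scale (adjusted p = 0.0529). Of 4 genes specific to α cells, MF(ALPHA)2 fell and STE3, the a-factor receptor gene, rose (0.28 ± 0.066; 0.11 on the external-control scale, adjusted p = 0.336). SAG1 (-0.065) did not pass, and the remaining probe gave only a bound, being below the blanks or saturated on every array of a group. Of 7 genes specific to a cells only BAR1 passed, with a fall of 0.12 (adjusted p = 0.0376) that ended without any one of the 4 Mot1-FRB arrays, with adjusted p-values of at most 0.128, and with the scanner loess (adjusted p = 0.373). Of 47 meiosis and sporulation genes 13 rose and 3 fell (8 rose without untreated culture a), near the 30.6% of all genes for rises, and on the external-control scale 2 rose and 17 fell. The recombinase gene DMC1 (0.62 ± 0.057) and the spore wall kinase gene SMK1 (0.54 ± 0.056) led them, while the master regulator IME1 had 0.13 and did not pass.

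Rapamycin alone, in wild type, gave no gene past the threshold. By limma 0 of 6388 genes passed in the wild type (0%), with 282 at an unadjusted p under 0.05 and a lowest adjusted p of 0.0978. The count was 1 without treated wild-type culture a, 3 without treated culture b and 0 in the other settings tried, including both sets of ratios computed from the scanner intensities. A p that misses the threshold does not show that a gene stayed the same, and the spread of changes over all genes gives the size: the SD over genes was 0.080 in wild type, 0.41 in Mot1-FRB and 0.43 in NCB2-FRB. Without the dim array the wild-type SD was 0.087.

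The direct test of the difference between Mot1-FRB and wild type called 2487 genes (38.9%), of which 1397 (21.9%) were higher and 1090 (17.1%) lower in Mot1-FRB. Without the dim array of treated wild-type culture a these counts were 1184 and 895. Of the 220 genes that rose at least 2-fold, 218 also differed from wild type, and of the 16 that fell at least 2-fold, 14 did. Both sets were chosen by their change on the same Mot1-FRB arrays that enter this difference, so these counts are not separate support. With median centring 11 of all genes were higher and 0 lower than in wild type. The 220 had a median change of 1.26 in Mot1-FRB against 0.061 in wild type, where they ranged from -0.19 to 0.54 (median 0.049, range -0.46 to 0.61, without the dim array). HSP12 had an excess over wild type of 2.65 ± 0.39 (adjusted p = 0.000537), and SES1 one of -1.31 ± 0.14 (adjusted p = 0.000102). For ZPS1 the difference did not pass (-0.66 ± 0.38, adjusted p = 0.198), nor for SPT15 (0.25 ± 0.096, adjusted p = 0.0627). Without the dim array these 4 differences were 2.91, -1.31, -0.78 and 0.26, with the same calls, and those of PYC1 and ARX1 were 0.54 and -0.66 (adjusted p = 0.00368 and 0.00391).

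**Figure D5:**
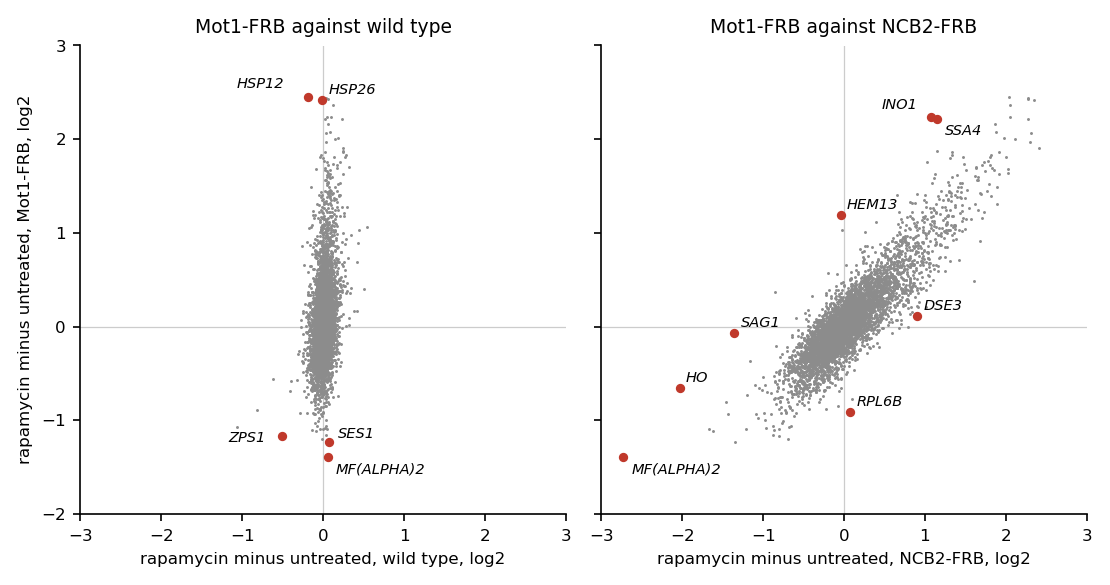
Change with rapamycin of the 5326 probes with a gene symbol in Mot1-FRB cells (vertical, log2) against its change in wild type (left) and in NCB2-FRB cells (right), 1 point per probe, with genes the text describes in red. The wild-type changes have an SD over genes of 0.080 against 0.41 in Mot1-FRB, and HO, SAG1, HEM13 and RPL6B are among the labelled points at the right.

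Rapamycin in NCB2-FRB cells, with the tag on NC2β, changed similar numbers of genes: 1886 rose (29.5%) and 1807 fell (28.3%), together 57.8%. The genes that rose in both strains numbered 1482, which is 75.8% of those risen in Mot1-FRB and 78.6% of those risen in NCB2-FRB, and 1264 fell in both, 75.9% and 70.0% of each. Opposite calls were given to 33 genes, 21 up in Mot1-FRB and down in NCB2-FRB and 12 the reverse. The test of the difference between the strains called 542 genes (8.48%), 243 (3.80%) higher and 299 (4.68%) lower in Mot1-FRB. These numbers rested on single arrays more than the others: without untreated Mot1-FRB culture a they were 52 and 79, without its culture b 95 and 114, without treated Mot1-FRB culture b 98 and 166, and without untreated NCB2-FRB culture a or b 100 and 127 or 83 and 108.

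Several genes set the Mot1-FRB response apart from the NC2β one. HEM13, for an enzyme of heme synthesis that is repressed by oxygen, went from -0.021 and -0.058 to 1.18 and 1.13 in Mot1-FRB (1.19 ± 0.055) and from 0.098 and 0.048 to 0.094 and -0.028 in NCB2-FRB, a difference of 1.23 ± 0.078 (adjusted p = 5.33e-05). INO1 rose further in Mot1-FRB than in NCB2-FRB, by 2.24 against 1.08, and so did SSA4, by 2.22 against 1.15. These differences were 1.15 ± 0.28 (adjusted p = 0.0317) and 1.07 ± 0.25 (adjusted p = 0.0289). That of INO1 did not pass without any one of 6 arrays: untreated Mot1-FRB a or b, treated Mot1-FRB b, untreated NCB2-FRB a or b and treated NCB2-FRB a (adjusted p up to 0.123). That of SSA4 did not pass without untreated a or b of either strain or treated NCB2-FRB culture a (adjusted p up to 0.112). Neither passed with the scanner loess (1.02, adjusted p = 0.186, and 1.17, adjusted p = 0.0501).

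Of the 8 genes named for a positive difference 3 have roles in mating type. HO, the endonuclease gene for mating-type switching, went from -0.54 and -0.54 to -1.21 and -1.18 in Mot1-FRB and from 0.058 and -0.029 to -2.07 and -1.96 in NCB2-FRB, a difference of 1.37 ± 0.083 (adjusted p = 5.33e-05). MF(ALPHA)2 had -1.39 against -2.73 (1.35 ± 0.24, adjusted p = 0.0112), which did not pass without untreated Mot1-FRB culture a (adjusted p = 0.0551). SAG1, the α-agglutinin gene, had 0.26 and 0.36 and then 0.21 and 0.28 in Mot1-FRB against a change of -1.36 ± 0.085 in NCB2-FRB (1.29 ± 0.12, adjusted p = 0.00144). Over the lists 2 of 4 genes specific to α cells, 0 of 7 specific to a cells and 3 of 29 pheromone and mating genes differed between the strains, beside 8.48% of all genes.

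In the other direction, some ribosomal protein copies fell in Mot1-FRB and had values near 0 in NCB2-FRB. RPL6B had -0.92 against 0.072 (-0.99 ± 0.18, adjusted p = 0.0141), RPS1A -0.77 against 0.10 (-0.88 ± 0.10, adjusted p = 0.00319) and RPS29B -0.85 against -0.075 (-0.77 ± 0.16, adjusted p = 0.0194). These differences with the scanner loess were -0.21 for RPL6B (adjusted p = 0.756), -0.43 for RPS1A (0.141) and -0.51 for RPS29B (0.123), none past the test, and RPL6B in Mot1-FRB itself was -0.34 (0.0786). The RPS29B difference also did not pass without untreated Mot1-FRB culture a (adjusted p = 0.0685) or untreated NCB2-FRB culture a (0.0663) or b (0.0534). The uracil permease gene FUR4, the cell separation gene DSE3, the bud site gene BUD9, the proline oxidase gene PUT1 and the zinc transporter gene ZRT2 rose less than in NCB2-FRB or did not change past the test. Their Mot1-FRB and NCB2-FRB changes were 0.21 and 1.01 for FUR4, 0.12 and 0.90 for DSE3, -0.0027 and 0.78 for BUD9, 0.92 and 1.68 for PUT1, and 0.21 and 0.92 for ZRT2. With scanner ratios and loess the differences of FUR4 (-0.72, adjusted p = 0.119), PUT1 (-0.77, 0.144) and ZRT2 (-0.72, 0.114) did not pass. The calls in Mot1-FRB of FUR4 (without untreated or treated culture a, adjusted p = 0.123 and 0.116) and of ZRT2 (without untreated or treated culture b, 0.318 and 0.223, and without either untreated NCB2-FRB culture, 0.0515) rested on single arrays, and neither gene passed with the scanner loess (adjusted p = 0.221 and 0.574) or on the external-control scale (0.737 and 0.756). ASP3-3 and TIP1 belong instead with the positive differences. ASP3-3, an asparaginase gene of a near-identical family, had 1.03 against -0.022, and TIP1, a wall protein gene, -0.37 against -1.16. Both differences ended in 10 of the 12 runs that left out 1 array.

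The tagged strain also differed from wild type without rapamycin. Untreated Mot1-FRB differed from untreated wild type in 269 genes (4.21%), 203 higher (3.18%) and 66 lower (1.03%). Without 1 of the untreated wild-type or Mot1-FRB arrays these counts were 47 to 68 and 8 to 21, and 43 were lower without either untreated NCB2-FRB array. The 220 genes that later rose at least 2-fold had a median difference of 0.33 between the untreated strains, against -0.0049 over all genes. Both comparisons use the untreated Mot1-FRB arrays, so that only their values are set side by side. HO, which fell with rapamycin, was already lower in the untreated tagged strain (-0.62 ± 0.059, adjusted p = 0.000367).

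Position along the chromosome was described for genes placed by the reference annotation, without coordinates. In 1228 pairs of divergently transcribed neighbours, which share an upstream region, 29.6% of the genes that rose had a partner that rose, against 30.2% of all members of such pairs, and for falls the shares were 29.2% and 28.4%. Both shares lie near their background. Convergent and tandem neighbours gave 28.9% against 29.5% and 31.8% against 30.6% for rises. Among the 222 measured genes that are 1 of the 10 nearest to a chromosome end, 32.0% rose and 13.1% fell, against 30.4% and 28.8% of the other 5067. The median absolute change was 0.17 near the ends and 0.21 elsewhere. The difference between these shares was not tested, and the brightness of the probes was not matched.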

How the data were processed

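RNA was measured on 12 two-colour arrays, 2 cultures in each of 6 groups, with 4 arrays for Mot1-FRB. The main values are the deposited log2 ratios of culture over reference, which the authors made, per the labels' protocols, by print-tip LOESS (span 0.4) without background subtraction and with a correction of gene-specific dye bias. The deposited scanner intensities, read with Imagene, served for quality and for 2 alternatives. The 2 spots of each probe were averaged over 6388 gene probes. The suffix r in the sample titles was read as rapamycin. Groups were compared with limma 3.58.1 in R 4.3.3, 1 mean per group over all 12 arrays, two-sided, with Benjamini-Hochberg adjustment at 0.05. The fit was tested on simulated data.

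Genes named are the 15 largest rises and 15 largest falls with non-overlapping groups, the 4 largest called changes of each of 43 lists, the 8 largest differences in each direction from wild type and from NCB2-FRB, and MOT1, NCB2, BUR6 and SPT15. Other list members are given as values chosen after they were seen. Probes with only a bound in a Mot1-FRB group were not named: 37 were below the blanks and 25 saturated on every array of a group. The members and lists were chosen with earlier results of these data known. Cultures of a group came from separate colonies, and 2 per group limit the precision. Gene names came from the platform annotation, with 5326 probes given a symbol, of which 2 did not match RefSeq. No promoter sequence was used here. Alternatives changed the source of the ratios, the centring, the arrays in the fit and a filter on dim and saturated probes, and left out each array in turn. Leaving out the NCB2-FRB arrays was added after seeing the data.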

Additional observations from a re-analysis of the deposited data

Results flagged for a closer look

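The response to rapamycin differed between Mot1-FRB and wild type in 2487 genes and between Mot1-FRB and NCB2-FRB in 542, by a test of the difference itself in limma. All values below are differences of log2 changes, Mot1-FRB minus the other strain, and each passed that test at an adjusted p under 0.05.

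Against wild type the largest positive differences were 2.65 for HSP12, 2.43 for HSP26, 2.40 for RTC3, 2.37 for MSC1, 2.25 for GAD1, 2.20 for SSA4, 2.20 for BDH2 and 2.13 for INO1. The largest negative differences were -1.44 for MF(ALPHA)2, -1.31 for SES1, -1.19 for RPS17A, -1.18 for RPS1B, -1.13 for RPS3, -1.10 for YMR321C, -1.09 for RPS24A and -1.08 for RPL26A. The wild-type comparison includes the dim treated array, and none of these 16 calls ended when any 1 of the 12 arrays was left out. With scanner ratios and loess 4 of them did not pass: SES1 (-1.16, adjusted p = 0.0665), RPS17A (-0.29, 0.437), RPS1B (-0.26, 0.281) and RPS3 (-0.56, 0.0501). With median centring none of the 16 passed.

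Against NCB2-FRB the largest positive differences were 1.37 for HO, 1.35 for MF(ALPHA)2, 1.29 for SAG1, 1.23 for HEM13, 1.15 for INO1, 1.07 for SSA4, 1.05 for ASP3-3 and 0.79 for TIP1. The largest negative differences were -0.99 for RPL6B, -0.88 for RPS1A, -0.80 for FUR4, -0.79 for DSE3, -0.79 for BUD9, -0.77 for RPS29B, -0.77 for PUT1 and -0.71 for ZRT2. Of these, the calls of INO1, SSA4, MF(ALPHA)2, ASP3-3, TIP1 and RPS29B ended in at least 1 run that left out an array. With scanner ratios and loess 10 of the 16 did not pass, namely INO1, SSA4, ASP3-3, TIP1, RPL6B, RPS1A, FUR4, RPS29B, PUT1 and ZRT2, and with median centring none did. TIP1 also did not pass when centred on external controls (0.62, adjusted p = 0.0549).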

How the results depend on the processing

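With ratios from the scanner intensities (normexp and loess), 977 genes fell in Mot1-FRB (1403 rose), 811 were higher and 428 lower against wild type, 14 and 18 against NCB2-FRB, and 55 and 7 between the untreated strains. With normexp and median centring these were 376 rises and 131 falls, then 11 and 0, 0 and 0, and 2 and 0. Centred on external controls they were 951 and 2532, then 588 and 1688, 15 and 568, and 521 and 11. SPT15 was 0.20 (adjusted p = 0.0549), 0.15 (0.834) and 0.062 (0.545) in these 3 settings, and BUR6 was 0.40 (0.89) with median centring and 0.033 (0.767) with external controls. Divergent partners shared a rise in 19.5%, 5.41% and 14.7%, against 21.3%, 6.03% and 13.8% of all members of such pairs. They shared a fall in 16.6%, 3.85% and 42.8%, against 17.1%, 2.12% and 41.9%. These shares moved with the number of genes called. The cause of the differences between settings was not tested.

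The letters a and b, which are also the dye orientation, were not taken to pair the cultures. The correlations of their deviations between groups were all above 0, from 0.011 to 0.55, and 0.39 between the 2 Mot1-FRB groups. Letter and dye cannot be told apart here. With the replicate block (letter) 2074 rose and 1795 fell, 410 were higher against NCB2-FRB and 115 lower between the untreated strains, and no named gene's call in Mot1-FRB changed.

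Leaving out each array in turn gave 1559 to 2004 rises and 1308 to 1715 falls, 1143 to 1468 higher and 825 to 1150 lower against wild type, 52 to 251 and 79 to 263 against NCB2-FRB, and 47 to 264 and 8 to 96 between the untreated strains. MOT1 ranged from 0.82 to 0.99, NCB2 from 0.82 to 0.93, BUR6 from 0.17 to 0.24 and SPT15 from 0.16 to 0.30 (adjusted p 0.116 without untreated culture b), with divergent partners at 24.7% to 30.3% for rises and 24.5% to 29.4% for falls. A group left with 1 array was assumed to vary like the others.

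Directions turned as follows. Centred on external controls, DSE3 was -0.055, and list medians were -0.095 (TBP regulators), -0.060 (autophagy), -0.11 (peroxisome), -0.010 (phospholipid), -0.081 (sphingolipid), -0.043 (hexose), -0.10 (cell wall), -0.11 (pheromone), -0.062 (α-specific), -0.14 (a-specific), -0.11 (meiosis) and -0.034 (daughter-specific). BAR1 was 0.079 with median centring, and BUD9 was 0.023 with loess and ranged from -0.059 (without untreated culture a) to 0.054 (without untreated culture b) with 1 array left out (0.035 without treated culture a). The ubiquitin median was 0.050 with loess, 0.060 with median centring and 0.024 and 0.017 without untreated culture a and b (lowest -0.024). The hexose median was -0.0012 and the α-specific one -0.13 without treated culture b (-0.065 without dim and saturated probes). The a-specific median was -0.021 with loess and -0.050 and -0.043 without untreated culture a and treated culture b (highest 0.080), and the TOR median 0.0037 without treated culture a (lowest -0.071).

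Of 191 named genes, 105 lost the call with median centring, 27 with loess, 18 with external controls and 0 to 8 with any 1 array left out. Motif classes of promoters were not run. Since no background was subtracted, the measured size of a change can be too small for dim probes, which was not tested.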

Other observations

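ADH4 and VEL1, which lie close together on the same chromosome arm, and YOR387C were chosen after their values were seen, because their cultures were uneven. VEL1 had 1.76 and 2.06 in the untreated and 0.075 and 1.60 in the treated Mot1-FRB cultures, a change of -1.08 ± 0.44 (limma, adjusted p = 0.0599), beside -1.06 ± 0.44 in wild type. YOR387C had 1.40 and 1.93 and then -0.11 and 1.66 (-0.89 ± 0.50, adjusted p = 0.151), beside -0.82 ± 0.50 in wild type. ADH4, an alcohol dehydrogenase gene that is induced by low zinc, had 0.66 and 0.90 and then -0.13 and 0.57 (-0.56 ± 0.23, adjusted p = 0.0545), beside -0.62 ± 0.23 in wild type. In each of the 3, treated culture a was the lowest of the 4 Mot1-FRB arrays and treated culture b lay close to the untreated ones, and none passed the test in either strain.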
